A study of Mus musculus with 18 samples.

Results

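TA (tibialis anterior) muscle of mice bearing KPC tumours was compared directly with TA muscle of mice bearing KPCML1 tumours. The 2 KPC libraries came from C57BL/6 mice injected orthotopically, that is into the organ of origin of the tumour, with 50000 KPC cells. The 2 KPCML1 libraries came from C57BL/6 mice injected orthotopically with 1000 KPCML1 cells, per the labels, although the name of one of the authors' comparison tables carries another cell number that may refer to them. These 4 libraries are those the comparison uses, of 18 libraries in 9 groups of 2 in the study, which sequenced poly(A) RNA of TA muscle from several mouse tumour models and their controls. The 2 libraries of C57BL/6 mice given Matrigel without cells are cited for background levels only. KPC is the usual name of a family of mouse pancreatic cancer lines, and the labels do not say how KPCML1 differs from it. Line and number of injected cells differ together, so their effects cannot be told apart. The 2 libraries of each group are labelled biological replicates, so they are taken as separate mice, and no age, sex, tumour size, muscle weight or time of collection is given.

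Muscle that wastes in cancer is known to switch on a set of genes that degrade protein. FoxO transcription factors and glucocorticoids drive the muscle ubiquitin ligases atrogin-1 (Fbxo32) and MuRF1 (Trim63), which mark myofibrillar proteins for the proteasome, while myostatin and activins restrain muscle growth through activin receptors. Circulating cytokines act on the same tissue. Interleukin-6 signals through STAT3 and induces acute-phase genes, and interferons signal through STAT and IRF factors and induce guanylate-binding proteins, immunoproteasome subunits and antigen presentation.

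Muscle of KPC mice differed from muscle of KPCML1 mice in 964 of 16096 genes tested, or 5.99%. Of these, 473 (2.94%) were higher and 491 (3.05%) lower in KPC. A gene was called where the p-value of edgeR's quasi-likelihood test, adjusted over all genes tested by the method of Benjamini and Hochberg, was below 0.05. Levels below are in CPM (counts scaled to library size with TMM factors), differences are log2 KPC minus KPCML1 with their standard errors, and each group has 2 libraries. The lower genes included the endothelial transcription factors Sox18 and Sox7, interferon-response genes and collagens. The higher genes included metallothioneins, stress-response genes, myostatin, clock genes and secreted proteases.

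**Figure D1:**
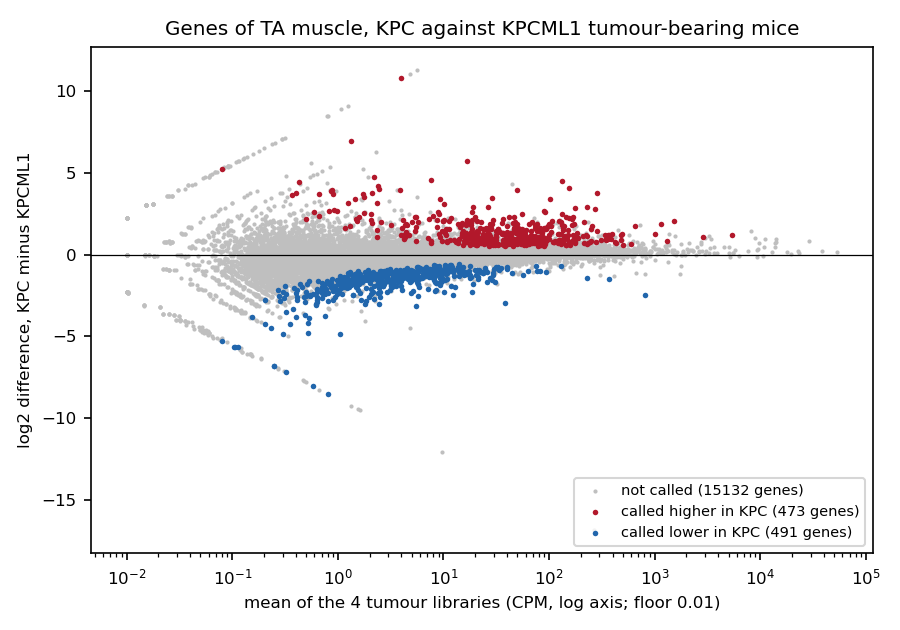
Each point is 1 of the 16096 genes tested. The horizontal axis gives the mean of the 4 tumour libraries in CPM on a log axis, and the vertical axis the log2 difference KPC minus KPCML1; the 473 genes called higher in KPC are red, the 491 called lower are blue and the others are grey. Called genes lie on both sides of 0, and points on straight lines at the outer edges are genes with no count in 1 group, whose fitted difference is no measure of fold.

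The KPC libraries held 36673780 and 34115995 fragments assigned to genes, and the KPCML1 libraries 32505885 and 22546541. Pearson's r of log2 CPM over genes was 0.972 between the KPC libraries, 0.977 between the KPCML1 libraries and 0.953 to 0.970 between the groups. KPC replicate 2 was the library further from KPCML1. Among the 473 genes called higher in KPC, it was above KPC replicate 1 in 423 (89.4%), against 48.0% of all genes tested and 36.7% of the genes called lower. Over the genes called higher, the median distance between the KPC libraries was 0.57 on the log2 scale, against 0.19 between the KPCML1 libraries. Over all genes tested these distances were 0.32 and 0.23. The genes of the mitochondrial genome took 13.7% and 15.3% of fragments in KPC, 11.2% and 9.04% in KPCML1, and 17.6% and 20.2% in Matrigel controls.

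The count of called genes depended strongly on single libraries. Without KPCML1 replicate 1 it was 19 (3 higher and 16 lower), and without KPCML1 replicate 2 it was 80 (23 and 57). Without KPC replicate 2 it was 95 (23 and 72), and without KPC replicate 1 it was 1984 (1189 and 795). A fit of the 4 libraries alone, with 2 residual degrees of freedom in place of 9, called 15 genes, 12 of them higher in KPC. DESeq2 on all libraries called 1719 genes, of which 59.9% were higher in KPC, against 49.1% in the edgeR fit. All 964 called genes kept their sign under each of these settings that tested them.

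**Figure D2:**
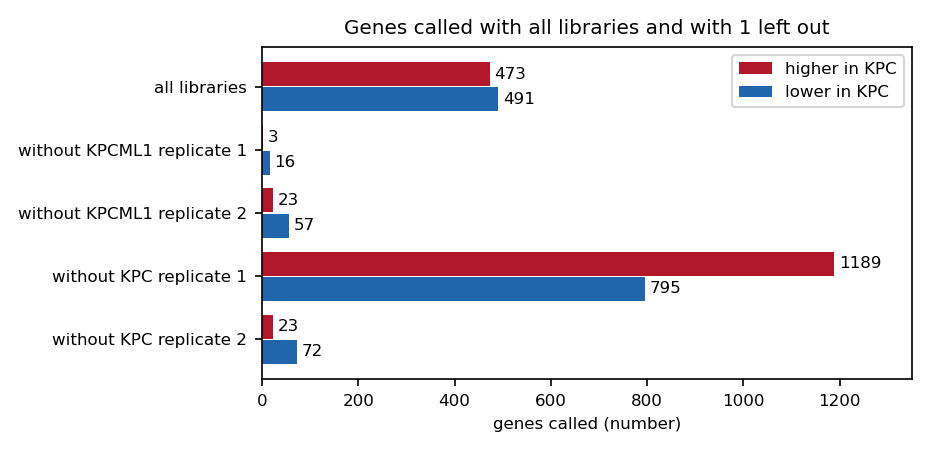
Bars give the number of genes called higher (red) and lower (blue) in KPC, with all libraries in the fit and with 1 of the 4 tumour libraries left out. Counts ranged from 3 higher and 16 lower without KPCML1 replicate 1 to 1189 higher and 795 lower without KPC replicate 1.

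The called genes were also set beside the Matrigel controls, which both tumour groups share, so the 2 comparisons are not independent. Against Matrigel, 4678 genes (29.1%) were called in KPC and 1374 (8.54%) in KPCML1. Of the 473 genes higher in KPC than in KPCML1, 392 were also called higher than Matrigel in KPC, and 44 in KPCML1. Of the 491 lower genes, 380 were called lower than Matrigel in KPC and 16 in KPCML1. The median difference from Matrigel of the higher genes was 1.30 in KPC and 0.13 in KPCML1, and that of the lower genes was -1.29 in KPC and 0.09 in KPCML1. The higher and lower genes were chosen by their difference between these same KPC and KPCML1 libraries. Their counts and medians against Matrigel are therefore partly fixed by that choice, and do not tell which tumour group changed.

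A set of 16 genes was called with all libraries and again without each of the 4 tumour libraries, 14 of them lower and 2 higher in KPC. Several of these are singled out here because of that property, after their values were seen. Sox18, a transcription factor of endothelial cells (chromosome 2, 181669836 to 181671640, mm10), stood at 0.609 and 1.63 CPM in KPC, 8.33 and 11.2 in KPCML1, and 9.60 and 9.93 in Matrigel. Both KPC libraries were far below the others, and the difference was -3.13 ± 0.45 (SE, adjusted p = 0.0056). Gja5, the gap-junction protein connexin 40 of arterial endothelium (chromosome 3), was at 0.426 and 0.355 CPM in KPC and 2.86 and 3.56 in KPCML1, a difference of -3.02 ± 0.31 (adjusted p = 0.0011). Trim47, a member of the tripartite-motif ubiquitin ligase family (chromosome 11), was at 1.77 and 1.81 CPM in KPC against 9.21 and 7.71 in KPCML1, a difference of -2.24 ± 0.23 (adjusted p = 0.0011). In each of these genes the KPCML1 libraries lay near the Matrigel libraries, which were at 2.43 and 2.80 CPM for Gja5 and 8.98 and 8.97 for Trim47. Ushbp1, a binding partner of the Usher syndrome protein harmonin, was at 8.83 and 8.13 CPM in KPC and 27.9 and 31.7 in KPCML1 (-1.81 ± 0.20, adjusted p = 0.0011). Rsrp1, an arginine- and serine-rich protein, was at 216 and 179 CPM in KPC and 599 and 491 in KPCML1 (-1.46 ± 0.16, adjusted p = 0.0011). The calcium-dependent phospholipid-binding protein Cpne1 fell by 1.75 and the alcohol dehydrogenase Adh1 by 1.45 on the log2 scale. The 2 higher genes were Tmcc3, at 119 and 129 CPM in KPC against 48.4 and 48.8 in KPCML1 (1.35 ± 0.16, adjusted p = 0.0032), and the zinc-finger gene Zfp410, at 47.5 and 37 against 14.4 and 13.1 CPM (1.62 ± 0.22, adjusted p = 0.0040). None of these 9 genes, nor Oasl2, was called in the fit of the 4 libraries alone, where their adjusted p ran from 0.057 to 0.070. The remaining members were Oasl2, described with the interferon genes, and Fancf, Gimap1, Gnpda1, Il2ra, Rasgrp2 and Sigirr, all lower in KPC.

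Of 15 endothelial markers tested, 1 was called lower (6.67%, against 3.05% of all genes), Sox18 itself. An unadjusted p under 0.05 was reached by 5 of the 15, against 3883 of all 16096 genes. Sox17, also on the list, was not called. Differences were positive for 6 markers and negative for 9. The median difference was -0.27, against 0.00 over all genes tested, and it ran from -0.75 without KPC replicate 2 to 0.16, with 3 called higher and 1 lower, without KPC replicate 1. The summed level of the list was 304 and 476 TPM (a level per transcript length and library size) in KPC, 515 and 651 in KPCML1, and 330 and 332 in Matrigel. Sox7, a close relative of Sox18 (chromosome 14) that was picked out for this kinship after its values were seen, was at 0.883 and 1.14 CPM in KPC, 2.72 and 2.78 in KPCML1, and 6.06 and 5.70 in Matrigel, and the difference of -1.44 ± 0.28 was called (adjusted p = 0.016). Hspa12b, an Hsp70-family gene known from endothelial cells, was at 2.89 and 3.98 CPM in KPC and 12.3 and 21.1 in KPCML1, a difference of -2.28 ± 0.36 (adjusted p = 0.0075). In whole muscle, fewer cells of a type and less RNA per cell cannot be told apart.

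The other large decreases were of genes with varied roles. Amd1, which makes the aminopropyl donor of polyamine synthesis, stepped down over the groups, with 585 and 268 CPM in Matrigel, 84.2 and 51.1 in KPCML1, and 6.24 and 11.2 in KPC. The difference was -2.96 ± 0.44 (adjusted p = 0.0056), and reads of the near-identical Amd2 could be counted here. The nuclear long RNA Neat1, the scaffold of paraspeckles, was at 354 and 146 CPM in KPC and 1620 and 1107 in KPCML1, with 1336 and 1292 in Matrigel, a difference of -2.45 ± 0.52 (adjusted p = 0.020). The phospholipase Plcd4 fell by 2.47, the receptor Tnfrsf19 by 2.28, the voltage-gated potassium channel Kcna5 by 2.21 and the cadherin Cdh23 by 2.15 on the log2 scale, with adjusted p from 0.011 to 0.039. Of Sox18, Sox7, Hspa12b, Amd1, Neat1, these 4 and 2 interferon-induced GTPases described next (11 genes in all), 2 were still called without KPCML1 replicate 1, 4 without KPCML1 replicate 2, 9 without KPC replicate 1 and 3 without KPC replicate 2. The lost calls had adjusted p from 0.0505 to 0.36.

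**Figure D3:**
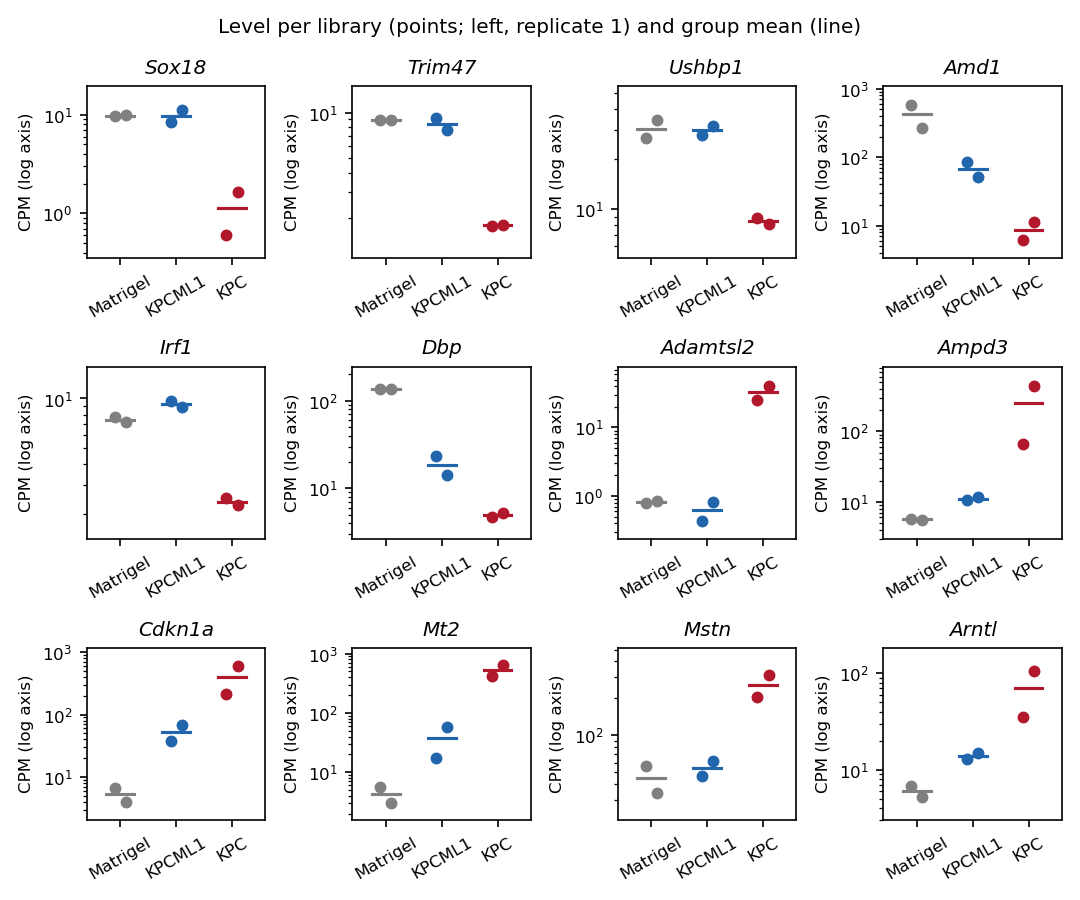
Levels in CPM (log axes) of 12 named genes in the 2 Matrigel, 2 KPCML1 and 2 KPC libraries; points are libraries, with replicate 1 on the left, and lines are group means. For Sox18, Trim47, Ushbp1 and Irf1 the KPCML1 libraries lie close to Matrigel and the KPC libraries below both, for Amd1 and Dbp the KPCML1 libraries lie between, and for Ampd3 the KPC libraries are 65.4 and 440 CPM apart.

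Genes of the interferon response were lower in KPC than in KPCML1. Of 31 tested, 12 were called lower (38.7%, against 3.05% of all genes), none was called higher, and all 31 differences were negative, with a median of -1.31. The libraries of the 2 groups did not overlap in 28 of the 31, against 49.1% of all genes. The list's median difference from Matrigel was -1.29 in KPC and 0.06 in KPCML1. The called members included the transcription factors Irf1 and Irf9, the 2',5'-oligoadenylate synthetase family members Oas1a and Oasl2, the GTPases Gbp2, Gbp5 and Iigp1, the immunoproteasome subunits Psmb8 and Psmb9, and Ifi35 and Parp14.

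Short upstream sequences of Irf1, Gbp5 and Psmb8 are shown because these genes stand for the regulators, the GTPases and the immunoproteasome among the members called lower. Each line gives the 250 bases before a RefSeq start (GRCm38.p6), with matches in capitals. Where a gene has several RefSeq starts, the one with the most matches is shown, so the matches are partly a product of that choice. The interferon-stimulated response element was searched as GAAA, any 2 bases and GAAA again, and the STAT-binding gamma-activated site as TTCNNNGAA, each on both strands. The windows are chr11:53769764-53770013 (plus strand) for Irf1, chr3:142496684-142496933 (plus strand) for Gbp5 and chr17:34197945-34198194 (plus strand) for Psmb8. Those of Gbp5 and Psmb8 lie inside the genes as annotated by GENCODE, which start at 142493978 and 34197721.
Irf1: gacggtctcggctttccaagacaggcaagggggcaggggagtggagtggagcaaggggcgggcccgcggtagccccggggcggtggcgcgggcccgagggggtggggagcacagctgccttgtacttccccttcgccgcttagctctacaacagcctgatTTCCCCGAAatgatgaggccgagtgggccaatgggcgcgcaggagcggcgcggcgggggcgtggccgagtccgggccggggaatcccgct
Gbp5: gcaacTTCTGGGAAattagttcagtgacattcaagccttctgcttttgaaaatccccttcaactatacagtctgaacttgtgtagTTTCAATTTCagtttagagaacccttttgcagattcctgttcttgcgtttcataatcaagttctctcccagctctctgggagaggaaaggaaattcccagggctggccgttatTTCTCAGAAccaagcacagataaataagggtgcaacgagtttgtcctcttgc
Psmb8: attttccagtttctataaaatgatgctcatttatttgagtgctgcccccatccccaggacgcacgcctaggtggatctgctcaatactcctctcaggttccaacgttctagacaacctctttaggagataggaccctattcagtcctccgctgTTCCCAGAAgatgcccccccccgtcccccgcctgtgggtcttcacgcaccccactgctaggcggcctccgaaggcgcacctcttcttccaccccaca
The capitals mark 1 gamma-activated site in Irf1 and in Psmb8, and 2 such sites around 1 response element in Gbp5; none overlap. Among all 32851 promoters of this length, 2.98% held the response element and 7.02% the gamma-activated site. Of 11 RefSeq promoters of called interferon genes, 3 (27.3%) held the response element and 4 (36.4%) the gamma-activated site. Of 17 promoters of members not called, 10 (58.8%) and 4 (23.5%) did. A match of letters is a description and not a binding site.

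Irf1 was at 2.50 and 2.27 CPM in KPC, 9.61 and 8.87 in KPCML1, and 7.68 and 7.23 in Matrigel. The KPC libraries were below all 4 others, and the difference was -1.95 ± 0.28 (adjusted p = 0.0056). Gbp5 was at 0.548 and 0.781 CPM in KPC, 4.03 and 2.94 in KPCML1, and 3.76 and 4.47 in Matrigel, a difference of -2.40 ± 0.43 (adjusted p = 0.011). Psmb8 was at 2.83 and 2.02 CPM in KPC, 7.28 and 7.46 in KPCML1, and 5.02 in each Matrigel library, a difference of -1.60 ± 0.29 (adjusted p = 0.012). Oasl2 had the smallest p of the list, with 0.426 CPM in each KPC library against 3.33 and 2.40 in KPCML1 and a difference of -2.74 ± 0.37 (adjusted p = 0.0040). Oas1a was at 0.0305 and 0.107 CPM in KPC and 1.08 and 0.746 in KPCML1, and its reads can be shared with near-identical neighbours. A pair of GTPases outside the list was among the large decreases. Gbp4 fell by 2.52 (adjusted p = 0.015) and Gvin1, which has near-identical copies, by 2.14 (adjusted p = 0.037) on the log2 scale.

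Members not called were lower by smaller or more variable amounts. Stat2, a transcription factor of type I interferon signalling, was at 2.38 and 3.48 CPM in KPC and 7.77 and 5.51 in KPCML1 (adjusted p = 0.069). Isg15, a ubiquitin-like protein that type I interferon induces, was at 1.10 and 1.21 CPM against 1.84 and 1.28 (adjusted p = 0.47). Antigen-presentation genes shared the direction. Of 17 tested, 2 were called lower (11.8%, against 3.05% of all genes) and none higher, with 0 called with length-scaled counts and 1 without the Matrigel controls. All 17 differences were negative with no overlap between the groups, and the median was -0.97. Over all genes, 49.1% had no overlap. These 2 were the peptide transporter Tap2, at 6.76 and 5.75 CPM in KPC and 10.8 and 13.1 in KPCML1 (-0.94 ± 0.23, adjusted p = 0.034), and the class Ib molecule H2-T23, at 11.6 and 8.45 against 18.2 and 21.3 CPM (-0.98 ± 0.25, adjusted p = 0.038). Markers of macrophages and monocytes, cells rich in both gene groups, were also mostly lower in KPC than in KPCML1. Set beside Matrigel the lists differed. The median of these markers was -0.12 in KPC and 0.93 in KPCML1. That of the interferon list was -1.29 and 0.06, and that of the antigen-presentation list -0.34 and 0.47. The summed level of the macrophage and monocyte markers was 89.6 and 78.4 TPM in KPC, 188 and 160 in KPCML1, and 82.5 and 48.6 in Matrigel. Their part in the result was not tested. Of the 13 interferon and antigen-presentation genes named here as called, 1 (Oasl2) was still called without KPCML1 replicate 1, 4 without KPCML1 replicate 2, 11 without KPC replicate 1, and 2 (Oasl2 and Irf1) without KPC replicate 2; the lost calls had adjusted p from 0.051 to 0.25.

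**Figure D4:**
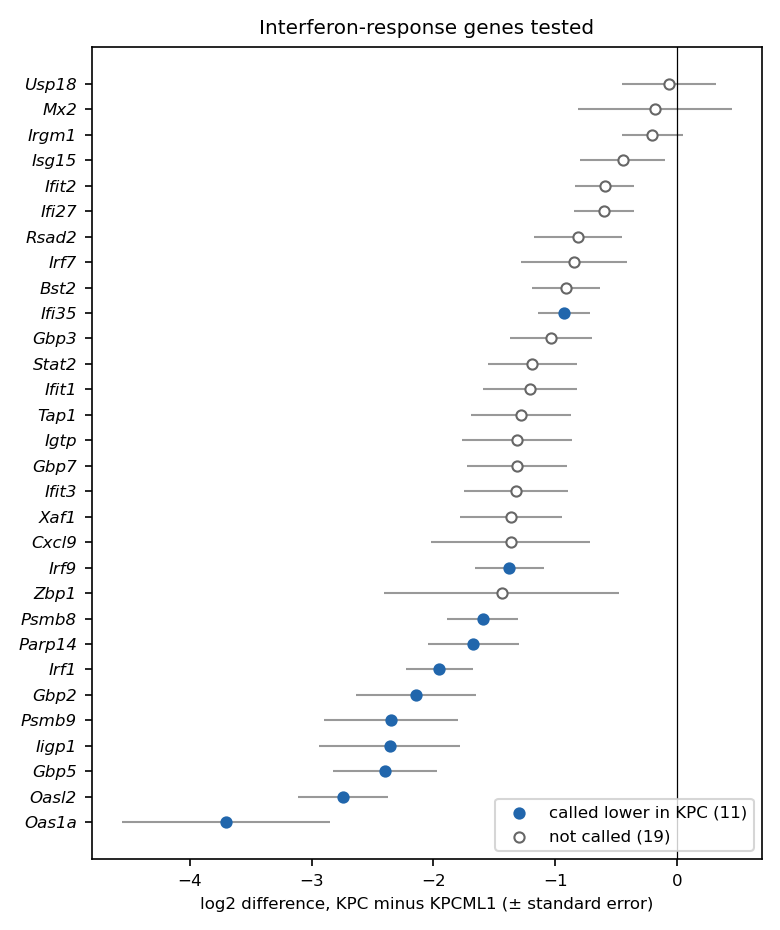
The log2 difference KPC minus KPCML1 with its standard error for 30 of the interferon-response genes tested. Filled blue points are 11 genes called lower in KPC and open points the 19 not called; all 30 lie below 0.

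Among genes at 5 CPM or more in KPC, without predicted genes and pseudogenes, the largest increases were of genes with varied roles. Adamtsl2, a secreted glycoprotein of the extracellular matrix (chromosome 2), was at 25.3 and 40.5 CPM in KPC against 0.438 and 0.829 in KPCML1 and 0.778 and 0.853 in Matrigel. The difference was 5.72 ± 0.99 (adjusted p = 0.011). Htra1, a secreted serine protease (chromosome 7), was at 119 and 465 CPM in KPC against 13.9 and 21.0 in KPCML1 (4.07 ± 0.61, adjusted p = 0.0057). In both genes the KPCML1 libraries lay near Matrigel or below it. Ampd3, an AMP deaminase of purine metabolism (chromosome 7), was at 65.4 and 440 CPM in KPC against 10.6 and 11.7 in KPCML1 (4.50 ± 0.78, adjusted p = 0.011). Adamts2, the protease that removes the amino propeptide of procollagens, showed the widest spread, with 9.96 CPM in KPC replicate 1 and 175 in KPC replicate 2 against 6.17 and 5.68 in KPCML1 (3.96 ± 0.91, adjusted p = 0.025). Tmem82 had the same form, with 1.68 and 27.5 CPM in KPC and 0.643 and 0.580 in KPCML1, as did Greb1, with 0.853 and 13.7 against 0.701 and 0.207. For these 3 genes most of the difference lay in KPC replicate 2.

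The sphingosine kinase Sphk1 and the magnesium transporter family member Slc41a3 were also among the largest increases. Slc41a3 was lowest in KPCML1, with 13.9 and 21.0 CPM, against 86.5 and 286 in KPC and 71.0 and 68.8 in Matrigel (3.42 ± 0.71, adjusted p = 0.019). Sphk1 was at 7.58 and 28.3 CPM in KPC and 1.49 and 2.69 in KPCML1 (3.11 ± 0.73, adjusted p = 0.027). Of these 8 genes and the zinc transporter Slc30a2, 9 in all, none was still called without KPCML1 replicate 1 and 1 (Htra1) without KPCML1 replicate 2. All 9 were called without KPC replicate 1, and 2 (Adamtsl2 and Htra1) without KPC replicate 2, with adjusted p of the lost calls from 0.068 to 0.68.

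Metallothioneins, small cysteine-rich proteins that bind zinc and copper, were higher in KPC. Mt2 was at 420 and 634 CPM in KPC, 17.7 and 58.8 in KPCML1, and 5.71 and 3.04 in Matrigel (3.79 ± 0.84, adjusted p = 0.022). Mt1 was at 393 and 551 CPM in KPC, 30.2 and 104 in KPCML1, and 6.97 and 7.64 in Matrigel (2.82 ± 0.64, adjusted p = 0.024). For both genes the groups did not overlap and KPCML1 lay between Matrigel and KPC. Against Matrigel, Mt2 differed by 6.91 in KPC and 3.12 in KPCML1, both called. Slc39a14, a zinc importer of the plasma membrane, was at 108 and 509 CPM in KPC, 35.4 and 49.1 in KPCML1, and 12.9 and 8.90 in Matrigel (2.87 ± 0.75, adjusted p = 0.039). Slc30a2, a zinc exporter, was at 15.8 and 52.0 CPM in KPC, 4.30 and 4.60 in KPCML1, and 23.8 and 18 in Matrigel (2.93 ± 0.53, adjusted p = 0.012), so for this gene KPCML1 and not KPC was the group away from Matrigel. In the list of 23 NRF2 targets and metallothioneins, 3 were called higher (13%, against 2.94% of all genes) and none lower. They were Mt1, Mt2 and Slc39a14, none of them a classical NRF2 enzyme. These 4 metal genes stayed called without KPC replicate 1, and none was called without each of the other tumour libraries in turn, where adjusted p ran from 0.0505 to 0.41.

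The upstream sequences of the neighbouring genes Mt1 and Mt2 on chromosome 8 are shown because metallothionein transcription is known to respond to zinc through metal response elements. The element was searched on both strands as TGCACNC or TGCGCNC, and matches are in capitals in the 250 bases before each RefSeq start (GRCm38.p6), chr8:94178839-94179088 (plus strand) for Mt1 and chr8:94172368-94172617 (plus strand) for Mt2.
Mt1: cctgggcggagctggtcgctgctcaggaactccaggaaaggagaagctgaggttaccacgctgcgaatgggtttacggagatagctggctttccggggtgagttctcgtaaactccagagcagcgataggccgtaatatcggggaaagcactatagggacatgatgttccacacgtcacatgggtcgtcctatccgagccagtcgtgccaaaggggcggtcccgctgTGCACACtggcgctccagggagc
Mt2: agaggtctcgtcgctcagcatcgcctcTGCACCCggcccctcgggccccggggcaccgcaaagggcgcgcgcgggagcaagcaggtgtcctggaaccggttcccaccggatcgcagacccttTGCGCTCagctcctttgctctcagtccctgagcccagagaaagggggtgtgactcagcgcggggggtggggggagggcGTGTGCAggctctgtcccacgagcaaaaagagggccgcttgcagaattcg
The Mt2 window held 3 matches that do not overlap and the Mt1 window 1. Bases outside the windows were not searched, so these are not counts for the genes as a whole. The element is short, and 21.4% of all 32851 promoters of this length hold at least 1 match.

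Stress-response genes were higher in KPC in part. Of 24 immediate early and p53 target genes tested, 6 were called higher (25%, against 2.94% of all genes) and none lower. Cdkn1a, the cell-cycle inhibitor p21 (chromosome 17), was at 210 and 602 CPM in KPC, 38.1 and 68.6 in KPCML1, and 6.61 and 3.92 in Matrigel. KPC was above KPCML1 and KPCML1 above Matrigel without overlap, and the difference between the tumour groups was 2.93 ± 0.55 (adjusted p = 0.014). Btg2, an antiproliferative p53 target, was at 151 and 164 CPM in KPC, 42.1 and 41.5 in KPCML1, and 13.7 and 11.1 in Matrigel (1.91 ± 0.38, adjusted p = 0.017). The other called members were Ier3 (1.99), Atf3 (2.27), Sesn2 (1.66) and Trp53inp1 (1.64), with adjusted p from 0.013 to 0.027.

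The integrated stress response, in which phosphorylated eIF2 raises translation of ATF4, had calls in both directions. Of 21 genes tested, 4 were called higher (19%, against 2.94% of all genes) and 2 lower (9.52%, against 3.05%), and the median difference was 0.02. Atf3 and Sesn2, already counted in the list above, were among the 4. With length-scaled counts neither lower call held. Ppp1r15a, the phosphatase subunit that ends the response, was at 211 and 328 CPM in KPC, 44.3 and 71.5 in KPCML1, and 25.3 and 22.9 in Matrigel (2.22 ± 0.33, adjusted p = 0.0058). Atf4 itself was at 381 and 521 CPM in KPC and 195 and 275 in KPCML1 (0.94 ± 0.24, adjusted p = 0.036). Ddit3, the transcription factor CHOP downstream of ATF4, went the other way, with 2.62 and 2.34 CPM in KPC, 5.00 and 5.39 in KPCML1, and 11.4 and 19.8 in Matrigel (-1.06 ± 0.28, adjusted p = 0.043). The stress-induced chromatin protein Nupr1 was likewise lower (-1.06 ± 0.26, adjusted p = 0.029). Of the 10 stress genes called here, none was called without KPCML1 replicate 1, 1 (Ppp1r15a) without KPCML1 replicate 2 or without KPC replicate 2, and 9 without KPC replicate 1. The lost calls had adjusted p from 0.064 to 0.29.

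The 2 best-known atrophy genes were high in both tumour groups and were not called between them by edgeR. Fbxo32 (atrogin-1) was at 1916 and 2847 CPM in KPC, 1749 and 2124 in KPCML1, and 407 and 211 in Matrigel. The tumour groups overlapped, and the difference was 0.30 ± 0.32 (adjusted p = 0.62). Trim63 (MuRF1) was at 2646 and 6321 CPM in KPC, 1514 and 2502 in KPCML1, and 260 and 161 in Matrigel, with a difference of 1.16 ± 0.44 that missed the threshold (adjusted p = 0.12). DESeq2 did call Trim63 (adjusted p = 0.040), and a missed threshold does not show equal levels. DESeq2 called 9 of 26 muscle ubiquitin ligases higher, and 1029 of all 16096 genes. By edgeR, 2 of the 26 were called higher (7.69%, against 2.94% of all genes) and none lower. The 2 were Traf6, an adaptor ligase of cytokine signalling, at 22.3 and 35.3 CPM against 13.9 and 13.3 (1.08 ± 0.21, adjusted p = 0.016), and Siah1a, at 36.1 and 51.6 against 16.8 and 21.0 CPM (1.22 ± 0.24, adjusted p = 0.016). All 33 proteasome genes tested had positive differences, against 8003 of all 16096 genes, and edgeR called none. Their median was 0.28, and it was 0.05 without KPCML1 replicate 1 and 0.62 without KPCML1 replicate 2. The libraries of the 2 groups did not overlap in 14 of the 33, against 49.1% of all genes. An unadjusted p under 0.05 was reached by 6 of the 33, against 3883 of all 16096 genes. DESeq2 called 3 higher, against 1029 of all 16096 genes. The smallest p by edgeR belonged to Psmc6 (0.66 ± 0.20, adjusted p = 0.061).

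Of 25 autophagy and lysosome genes, 3 were called higher (12%, against 2.94% of all genes) and none lower. These were the autophagosome protein Map1lc3b, at 481 and 586 CPM in KPC against 303 and 355 in KPCML1 (0.70 ± 0.17, adjusted p = 0.028), the mitophagy receptor Bnip3l (0.78 ± 0.22, adjusted p = 0.048) and Wipi1 (0.88 ± 0.24, adjusted p = 0.046). Of 28 glucocorticoid and FoxO targets, 4 were called higher (14.3%, against 2.94% of all genes) and none lower, with a list median of 0.73. Pik3r1, the regulatory subunit of PI3-kinase, was at 323 and 458 CPM in KPC, 90.5 and 140 in KPCML1, and 20.6 and 21.1 in Matrigel (1.76 ± 0.36, adjusted p = 0.019). Klf9, a glucocorticoid-induced transcription factor, was at 451 and 652 CPM in KPC, 242 and 216 in KPCML1, and 197 and 176 in Matrigel (1.27 ± 0.27, adjusted p = 0.019). Errfi1, a feedback inhibitor of the EGF receptor, was at 133 and 268 CPM in KPC and 47.3 and 49.5 in KPCML1 (2.05 ± 0.45, adjusted p = 0.022), and Cdkn1a was the fourth member. Klf9 in KPCML1 was close to Matrigel, whereas Pik3r1 in KPCML1 was between the other groups.

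Other members of the atrophy set were not called between the tumour groups by edgeR. Foxo1, the transcription factor, was at 131 and 245 CPM in KPC, 34.6 and 81.8 in KPCML1, and 19.1 and 13.5 in Matrigel (adjusted p = 0.071, and 0.040 with DESeq2). Cebpd was at 356 and 637 CPM in KPC and 291 and 375 in KPCML1 (adjusted p = 0.37), and Gadd45a at 117 and 168 against 78.5 and 89.3 CPM (adjusted p = 0.17). Pdk4, which shuts off pyruvate oxidation, was at 1643 and 5029 CPM in KPC and 2334 and 1924 in KPCML1 (adjusted p = 0.46), so the KPC libraries lay on both sides of KPCML1. Angptl4 was at 3.44 and 13.2 CPM in KPC and 9.41 and 10.03 in KPCML1 (adjusted p = 0.88), again on both sides. The 8 called genes of this set other than Cdkn1a were all called without KPC replicate 1, and none was called without each of the other tumour libraries in turn, with adjusted p from 0.064 to 0.51.

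Myostatin, the secreted factor that limits muscle mass, was higher in KPC. Mstn (chromosome 1, 53061640 to 53068079, mm10) was at 205 and 307 CPM in KPC, 46.5 and 61.8 in KPCML1, and 56.4 and 34.0 in Matrigel. Both KPC libraries were above the 4 others, the KPCML1 and Matrigel libraries overlapped, and the difference between the tumour groups was 2.24 ± 0.33 (adjusted p = 0.0056). Inhbb, the activin B subunit, was at 14.7 and 45.3 CPM in KPC, 4.65 and 9.03 in KPCML1, and 0.713 and 1.06 in Matrigel (2.14 ± 0.54, adjusted p = 0.036). Among the receptors, the type I receptor Acvr1b rose to 161 and 331 CPM in KPC from 118 and 104 in KPCML1 (1.15 ± 0.28, adjusted p = 0.030). The type II receptors for myostatin and activin moved in opposite directions. Acvr2a was at 57.5 and 45.8 CPM in KPC against 31.3 and 32.3 in KPCML1 (0.70 ± 0.19, adjusted p = 0.044), and Acvr2b at 2.74 and 2.06 against 7.63 and 4.14 CPM (-1.30 ± 0.29, adjusted p = 0.023). These 5 were the called members of 27 tested in the myostatin, activin and IGF list. That is 4 higher (14.8%, against 2.94% of all genes) and 1 lower (3.7%, against 3.05%). The activin-binding protein Fst was at 1.77 and 6.96 CPM in KPC and 2.57 and 1.49 in KPCML1 (adjusted p = 0.27), and Igf1 at 3.02 and 7.74 against 7.28 and 2.61 CPM (adjusted p = 0.94). Of the 5 called genes, none was called without KPCML1 replicate 1, Mstn and Acvr2b without KPCML1 replicate 2, Mstn alone without KPC replicate 2, and all but Acvr2a without KPC replicate 1, with adjusted p of the lost calls from 0.082 to 0.39.

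Clock genes differed in both directions. In the circadian loop, the activators ARNTL and CLOCK drive the Per, Cry and Nr1d genes and the output factor Dbp, and NFIL3 and DBP compete at D-box sequences. Of 19 clock genes tested, 5 were called higher (26.3%, against 2.94% of all genes) and 2 lower (10.5%, against 3.05%). Arntl was at 35.4 and 105 CPM in KPC, 12.9 and 15.0 in KPCML1, and 6.87 and 5.22 in Matrigel (2.34 ± 0.42, adjusted p = 0.011). Clock was at 38.5 and 54.4 CPM in KPC and 18.9 and 16.1 in KPCML1 (1.41 ± 0.25, adjusted p = 0.011). Nfil3 was at 206 and 209 CPM in KPC, 46.6 and 71.8 in KPCML1, and 20.2 and 15.0 in Matrigel (1.81 ± 0.45, adjusted p = 0.034). For each of these 3 genes both KPC libraries were above both KPCML1 libraries.

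The output and repressor genes of the clock did not share 1 direction. Dbp was at 4.66 and 5.22 CPM in KPC, 23.2 and 14.1 in KPCML1, and 136 in each Matrigel library (-1.92 ± 0.32, adjusted p = 0.011), so the tumour groups differed in the same sense as each did from Matrigel. Per3 was at 13.8 and 6.78 CPM in KPC, 31.5 and 20.7 in KPCML1, and 36.1 and 38.6 in Matrigel (-1.34 ± 0.28, adjusted p = 0.020). Nr1d1, the repressor REV-ERB alpha, was at 74.1 and 147 CPM in KPC, 29.7 and 42.0 in KPCML1, and 68.3 and 78.9 in Matrigel (1.63 ± 0.28, adjusted p = 0.011), with KPCML1 the lowest group. Cry2 was at 251 and 295 CPM in KPC and 54.0 and 92.3 in KPCML1 (1.90 ± 0.51, adjusted p = 0.043). The hour of collection is not given in the labels, so it cannot be told apart from the groups. All 7 genes were called without KPC replicate 1, 3 (Nr1d1, Dbp and Per3) without KPCML1 replicate 2, and none without KPCML1 replicate 1 or KPC replicate 2, with adjusted p of the lost calls from 0.060 to 0.26.

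The Per3 upstream sequence is shown because it was the 1 clock promoter, of 21 promoters of clock-list genes, that held the D-box searched on both strands as TTATGTAA. It covers the 250 bases before the RefSeq start (GRCm38.p6), chr4:151044666-151044915, read on the minus strand, with the D-box copies in capitals.
Per3: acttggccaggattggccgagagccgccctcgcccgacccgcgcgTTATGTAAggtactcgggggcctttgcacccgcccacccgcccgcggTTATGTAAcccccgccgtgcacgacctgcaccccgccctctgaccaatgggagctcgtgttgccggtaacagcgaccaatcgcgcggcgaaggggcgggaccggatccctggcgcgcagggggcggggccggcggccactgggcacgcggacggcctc
The window held 2 copies that do not overlap. Of all 32851 promoters of this length, 0.819% held at least 1.

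Metabolic gene lists were largely without calls. None of 52 nuclear-encoded genes of oxidative phosphorylation, 30 of glycolysis and glycogen, and 11 PGC-1 and ERR regulators was called by edgeR, and their medians were 0.14, 0.08 and 0.10, with ranges of 0.04 to 0.24, 0.04 to 0.14 and 0.07 to 0.16 when 1 tumour library was left out. At an unadjusted p under 0.05 stood 1, 3 and 2 of them, against 3883 of all 16096 genes. DESeq2 called 0, 2 and 1 of them, all higher, against 1029 of all genes called higher. The smallest adjusted p was 0.19 for the complex III subunit Uqcrc2, 0.076 for the phosphoglucomutase Pgm2 and 0.055 for Gabpa, a regulator that edgeR called with DESeq2's size factors. All 13 mitochondrially encoded genes had positive differences without overlap, against 49.1% of all genes without overlap, with a median of 0.83. None was called by edgeR, 8 had an unadjusted p under 0.05, and DESeq2 called 6 higher. mt-Nd5, a subunit of complex I, was at 9329 and 14524 CPM in KPC, 5554 and 3289 in KPCML1, and 12342 and 12026 in Matrigel (1.43 ± 0.42, adjusted p = 0.058), with KPCML1 below both other groups. Of 38 genes of fatty acid uptake and oxidation, 1 was called in each direction (2.63% each, against 2.94% higher and 3.05% lower of all genes). Ppara, a transcription factor of fatty acid oxidation, was at 9.81 and 21.1 CPM in KPC, 3.36 and 1.95 in KPCML1, and 6.16 and 7.68 in Matrigel (2.53 ± 0.54, adjusted p = 0.020). Lipe, hormone-sensitive lipase, was at 14.4 and 15.7 CPM in KPC, 28.4 and 35.8 in KPCML1, and 12.5 and 13.1 in Matrigel (-1.09 ± 0.26, adjusted p = 0.027), so KPCML1 was the group that stood above the others. Ppargc1a was at 47.1 and 17.9 CPM in KPC and 23.3 and 20.6 in KPCML1 (adjusted p = 0.67). Ppara alone was called without KPC replicate 1, and neither gene without each of the other tumour libraries, with adjusted p of the lost calls from 0.072 to 0.15.

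In the polyamine and NAD list of 20, 1 gene was called in each direction (5% each, against 2.94% higher and 3.05% lower of all genes). They were Amd1 (lower) and Ampd3 (higher), described above, and the list's median was -0.03. Smox, spermine oxidase, was low in both tumour groups, with 73.0 and 112 CPM in KPC, 104 and 71.0 in KPCML1, and 652 and 386 in Matrigel (adjusted p = 0.91 between the tumour groups). Nmrk2, the muscle nicotinamide riboside kinase, was at 5.94 and 0.888 CPM in KPC, 5.70 and 5.26 in KPCML1, and 130 and 112 in Matrigel (adjusted p = 0.49).

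Of 26 genes of the IL-6 family, STAT3 and the acute phase, 2 were called higher (7.69%, against 2.94% of all genes) and none lower. These were 1 acute-phase gene, Lcn2, and 1 receptor, Il6ra. The list's median was 0.50, and it ran from 0.12 without KPC replicate 2 to 0.92 without KPC replicate 1. Lcn2 (lipocalin 2), an iron-siderophore-binding protein, was at 29.2 and 34.6 CPM in KPC, 2.57 and 7.96 in KPCML1, and 0.908 and 0.375 in Matrigel (2.62 ± 0.61, adjusted p = 0.026). Il6ra, the interleukin-6 receptor, was at 80.0 and 168 CPM in KPC, 29.4 and 48.8 in KPCML1, and 4.25 and 3.17 in Matrigel (1.66 ± 0.46, adjusted p = 0.048). Both genes were ordered Matrigel, KPCML1, KPC without overlap. The feedback inhibitor Socs3 was at 12.6 and 9.87 CPM in KPC and 4.68 and 4.85 in KPCML1 (adjusted p = 0.35), and the serpin Serpina3n at 9.69 and 43.1 against 6.22 and 7.71 CPM (adjusted p = 0.13). Of 23 genes of the NF-kB pathway, 1 was called (4.35%, against 3.05% of all genes), Traf1, which was lower in KPC (-1.79 ± 0.49, adjusted p = 0.045). DESeq2 did not call Traf1. The 3 calls were kept without KPC replicate 1 and lost without each of the other tumour libraries, with adjusted p from 0.059 to 0.38.

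Lcn2 is also a neutrophil marker, and most neutrophil markers were likewise higher in KPC. Of 12 tested, 10 differences were positive and 2 negative, with a median of 1.23. The 2 called higher (16.7%, against 2.94% of all genes) were Lcn2 itself and the granule protein Ngp. Ngp was at 5.15 and 3.41 CPM in KPC, 0.146 and 0.166 in KPCML1, and listed at 0 in Matrigel (adjusted p = 0.014). The calprotectin subunit S100a8 was at 24.2 and 17.1 CPM in KPC, 4.15 and 8.91 in KPCML1, and 0.421 and 0.205 in Matrigel (adjusted p = 0.19), and its partner S100a9 at 31.2 and 18.9, 6.28 and 13.4, and 0.551 and 0.239 CPM; DESeq2 called S100a9 (adjusted p = 0.013). The summed level of the neutrophil markers was 280 and 206 TPM in KPC, 65.8 and 132 in KPCML1, and 6.32 and 2.97 in Matrigel, and their part in the acute-phase calls was not tested.

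Macrophage, monocyte and mast cell markers went mostly the other way. Of 20 macrophage and monocyte markers, 3 were called lower (15%, against 3.05% of all genes) and 1 higher (Cd14), and 19 differences were negative. The monocyte chemokine receptor Ccr2 was at 0.396 and 0.781 CPM in KPC, 4.30 and 3.36 in KPCML1, and 2.37 and 0.921 in Matrigel (-2.71 ± 0.63, adjusted p = 0.025). The mannose receptor Mrc1 was at 5.33 and 5.68 CPM in KPC, 12.6 and 13.5 in KPCML1, and 6.22 and 4.2 in Matrigel (-1.24 ± 0.31, adjusted p = 0.034). For Mrc1 the KPC libraries lay near Matrigel and KPCML1 above both. Ly6c2, whose reads can be shared with the near-identical Ly6c1, was also called lower (-1.63 ± 0.36, adjusted p = 0.021). Of 5 mast cell markers, 2 were called lower (40%, against 3.05% of all genes). The chymase Cma1 was at 0.944 and 0.639 CPM in KPC against 3.77 and 4.31 in KPCML1 (adjusted p = 0.023). The tryptase Tpsb2 was at 1.34 and 1.95 against 5.35 and 7.25 CPM (adjusted p = 0.025). The 6 cell-marker genes called here apart from Lcn2 and Cd14 were not called without KPCML1 replicate 1, KPCML1 replicate 2 or KPC replicate 2, and 2 of them (Ngp and Cma1) were called without KPC replicate 1, with adjusted p of the lost calls from 0.052 to 0.15.

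Matrix genes and fibroblast markers were lower in KPC in part. Of 42 collagen and matrix genes, 4 were called lower (9.52%, against 3.05% of all genes) and none higher, with a median of -0.42. Without KPC replicate 1 the calls were 3 higher and 1 lower, with no filter on low counts 4 and 14, and no gene of the list was called without each of the other tumour libraries in turn. The median ran from -0.10 without KPCML1 replicate 1 to -0.75 without KPC replicate 2. Col6a3, a chain of the collagen VI that surrounds myofibres, was at 3.41 and 1.92 CPM in KPC, 12.7 and 10.5 in KPCML1, and 33.0 and 24.7 in Matrigel (-2.12 ± 0.41, adjusted p = 0.016). Col6a1 had the same order, with 4.54 and 3.91, 13.1 and 11.1, and 43.0 and 32.8 CPM (-1.52 ± 0.42, adjusted p = 0.047). The other called chains were Col5a2 (-1.24 ± 0.33, adjusted p = 0.044) and Col14a1 (-2.28 ± 0.63, adjusted p = 0.047). The abundant fibrillar chains Col1a1 and Col3a1 were lower in both tumour groups than in Matrigel and were not called between them by edgeR. Col1a1 was at 1.98 and 4.30 CPM in KPC, 11.4 and 9.70 in KPCML1, and 265 and 60.3 in Matrigel (adjusted p = 0.18), and Col3a1 at 4.72 and 3.94, 16.7 and 12.4, and 133 and 92.2 CPM (adjusted p = 0.068, and 0.043 with DESeq2).

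Of 17 markers of fibro-adipogenic progenitors, the resident mesenchymal cells of muscle, 3 were called lower (17.6%, against 3.05% of all genes) and none higher. The 3 were Ly6a, Cd34 and Osr1. Of the 17 differences, 15 were negative, and the median was -0.91. Ly6a was at 25.4 and 31.2 CPM in KPC, 53.1 and 67.7 in KPCML1, and 31.0 and 35.3 in Matrigel (-1.09 ± 0.24, adjusted p = 0.022), so its KPC level was close to Matrigel. The summed level of the list was 414 and 478 TPM in KPC, 785 and 710 in KPCML1, and 560 and 357 in Matrigel, and its part in the collagen values was not tested. Tagln, an actin-binding protein of smooth muscle, was the 1 called of 11 pericyte and smooth muscle markers (-0.95 ± 0.24, adjusted p = 0.034). That is 9.09% called lower, against 3.05% of all genes. Of the 8 matrix, fibroblast and smooth muscle genes called here, 3 (Col6a3, Cd34 and Osr1) were called without KPC replicate 1 and none without each of the other tumour libraries, with adjusted p of the lost calls from 0.059 to 0.29.

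**Figure D5:**
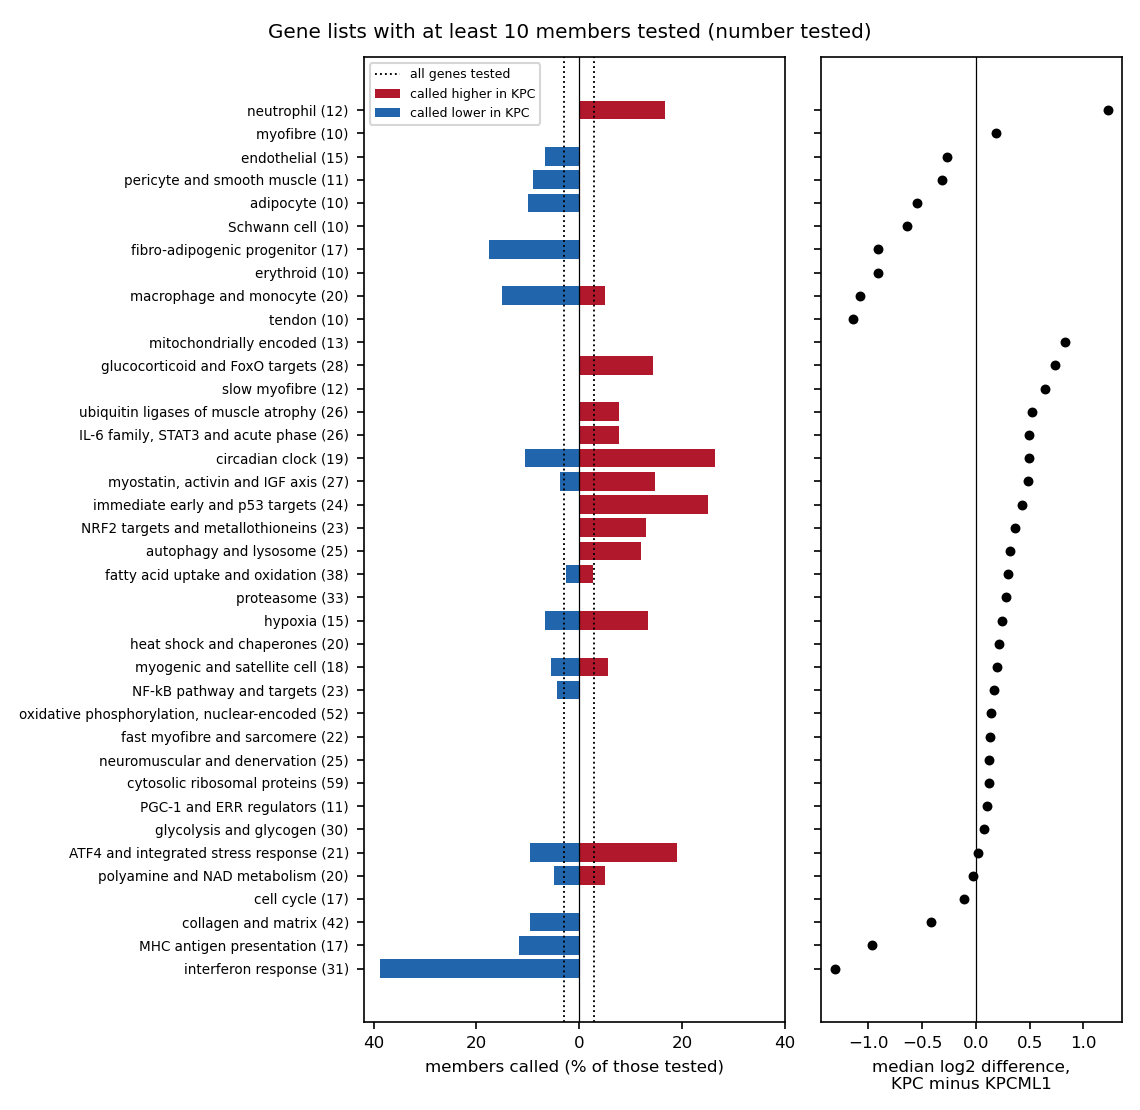
On the left, bars give the percentage of the tested members of each gene list with at least 10 members tested that were called higher (red, to the right) or lower (blue, to the left) in KPC, with dotted lines at the 2.94% and 3.05% of all genes; on the right, points give each list's median log2 difference KPC minus KPCML1. Cell marker lists are the 10 at the top, pathway lists are below, and the interferon list has the longest bar of those drawn, with 12 of 31 members lower.

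Markers of other tissues were looked at in the same way. Erythroid genes, chiefly globins, summed to 5418 and 5732 TPM in KPC, 9661 and 21090 in KPCML1, and 1068 and 1083 in Matrigel, and none of 10 was called by edgeR or DESeq2 or had an unadjusted p under 0.05. The keratinocyte gene Krt14 was at 7.04 and 6.5 CPM in KPC, 0.146 and 0.787 in KPCML1, and 0.0324 and 0.136 in Matrigel (adjusted p = 0.13). Desmoplakin (Dsp) was at 3.72 and 3.73 CPM in KPC and 0.175 and 0.0829 in KPCML1 (adjusted p = 0.11, and 0.017 with DESeq2), and Krt5 at 1.74 and 1.53 against 0.0292 and 0.0414 CPM. None of 7 skin and hair genes was called by edgeR, and DESeq2 called 1 higher. An unadjusted p under 0.05 was reached by 2 of the 7, against 3883 of all 16096 genes. Their summed level was 13.2 and 11.0 TPM in KPC against 2.84 and 4.96 in KPCML1, and the part of attached skin in any result was not tested. Pancreatic acinar genes were all below the level needed for testing, and 5 of 10 were listed at 0 in all 6 libraries.

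Contractile genes were abundant in all libraries. The 10 myofibre markers summed to 111550 and 109640 TPM in KPC, 130240 and 123930 in KPCML1, and 117120 and 99208 in Matrigel. None of 22 fast myofibre and sarcomere genes, 12 slow myofibre genes and 25 neuromuscular genes was called by edgeR. An unadjusted p under 0.05 was reached by 0, 1 and 7 of them, against 3883 of all 16096 genes. DESeq2 called 0, 0 and 2, the latter higher, against 1029 of all genes called higher. The fast myosin heavy chain Myh4 was at 50282 and 62898 CPM in KPC and 56352 and 43529 in KPCML1 (0.18 ± 0.42, adjusted p = 0.84), and Myh2 at 445 and 477 against 460 and 484 CPM (-0.03 ± 0.59, adjusted p = 0.98). The calcium release channel Ryr1 was at 4625 and 5914 CPM in KPC against 4269 and 3350 in KPCML1 (adjusted p = 0.27), and the calcium-storage protein Casq1 at 641 and 643 against 971 and 739 CPM (adjusted p = 0.38). Of 18 myogenic and satellite cell genes, 1 was called in each direction (5.56% each, against 2.94% higher and 3.05% lower of all genes). Chodl, a membrane lectin, was at 2.59 and 2.66 CPM in KPC, 6.96 and 6.13 in KPCML1, and 8.53 and 7.57 in Matrigel (-1.32 ± 0.23, adjusted p = 0.011), and Mef2a, a transcription factor of muscle genes, at 202 and 237 against 140 and 121 CPM in KPCML1 (0.74 ± 0.17, adjusted p = 0.025). Without KPC replicate 1 both were called, without KPCML1 replicate 2 Chodl alone, and without each of the other tumour libraries neither, with adjusted p of the lost calls from 0.055 to 0.18.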

How the data were processed

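RNA-seq of TA muscle was read as the authors deposited it, in 1 table per library with estimated counts and TPM per transcript. Per the submitters' processing notes, reads were demultiplexed with bcl2fastq 2.20 and checked with FastQC, and the notes name Salmon, DESeq2 and the mm10 build. The Salmon version, transcript release and strand setting are not given in the sources used. Per the labels, libraries were poly(A)-selected and directional. The authors' own comparison tables were not used.

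Transcripts were matched to GENCODE genes by identifier without version (139958 of 140825, 0.504% to 0.675% of fragments unmatched in the 6 libraries cited), and the deposited estimated counts were added up by gene, then rounded to whole numbers. edgeR 4.0.16 (R 4.3.3) fitted 9 groups over all 18 libraries with TMM scaling and its default low-count filter, and tested KPC minus KPCML1 by quasi-likelihood with 9 residual degrees of freedom. Reads of near-identical or overlapping genes may be shared. Deposited TPM values were summed for marker lists only. DESeq2 1.42.0 was an alternative. Simulated counts with 200 changed genes of 15883 gave 15% recovery of 2-fold and 63% of 4-fold changes, with 1 false call. Both KPC libraries were drawn there with the spread that the fit itself assumes for every group. The simulation therefore does not measure false calls where a single library stands apart, as KPC replicate 2 did. Replicate numbers were not used for pairing, since same-numbered KPC and KPCML1 libraries did not deviate together (correlation -0.045). Promoters are from RefSeq.

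Named genes were the 12 largest called differences in each direction (at least 5 CPM in the higher group, no overlap), the 6 smallest p values, up to 4 members of each list and a panel of 25 genes. A few genes that met these rules are not reported here. The members and lists were chosen with earlier results of these data known.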

Additional observations from a re-analysis of the deposited data

Results flagged for a closer look

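Dio2, Rsrp1 and Fmo1 are listed because each was called against the shared Matrigel controls in opposite directions in the 2 tumour groups; the test of the difference is the KPC minus KPCML1 contrast itself. Dio2, the deiodinase that makes active thyroid hormone (chromosome 12), was at 3.72 and 5.43 CPM in KPC, 0.234 and 0.331 in KPCML1, and 1.10 and 1.36 in Matrigel. It was higher than Matrigel in KPC (1.89, adjusted p = 0.0060), lower in KPCML1 (-2.13, adjusted p = 0.024), and differed by 4.02 ± 0.51 between the tumour groups (adjusted p = 0.0035). Rsrp1 was below Matrigel in KPC (-0.84, adjusted p = 0.0017) and above it in KPCML1 (0.62, adjusted p = 0.026), a difference of -1.46. Fmo1, a flavin monooxygenase (chromosome 1), was at 8.96 and 11.4 CPM in KPC, 27.5 and 22.8 in KPCML1, and 15.6 and 17.2 in Matrigel, a difference of -1.31 ± 0.17 (adjusted p = 0.0038). Without KPCML1 replicate 1, Dio2 and Fmo1 were no longer called (adjusted p 0.051 to 0.059); all 3 were called without each of the other tumour libraries.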

How the results depend on the processing

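Of 13 alternatives, the count of called genes stayed within 1.5 times of 964 with C57BL/6 libraries only (788), Matrigel controls left out (723), DESeq2's size factors in edgeR (968) and the replicate block (958), which among the lists moved 1 count of calls by over 1.5 times (NF-kB, 1 higher and 1 lower). It left that range with the 4 libraries alone (15 called, 12 higher and 3 lower), a fold threshold of 1.5 (70, 32 and 38), length-scaled counts (610, with 265 lower), no filter on low counts (1977, 1129 and 848) and DESeq2 (1719, with 1029 higher). With 1 tumour library left out, where the lone sample was assumed to vary like the other groups, the count ran from 19 to 1984, that of higher genes from 3 to 1189 and that of lower genes from 16 to 795. The cause was not tested. By transcript length, genes of 4381 bases or more were called higher in 5.47% and lower in 1.93%, and those of 1173 bases or less in 1.4% and 1.99%.

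Not all of the 129 genes described were called in the edgeR fit of all libraries, and only called genes could lose a call. Calls were lost for 93 with the 4 libraries alone, 70 with the fold threshold, 22 with length-scaled counts and 15 without the Matrigel controls. They were lost for 8 with C57BL/6 libraries only, 2 with the replicate block, 2 with DESeq2's size factors and 1 with DESeq2, which added 10. No called gene of these changed sign. Genes not called turned sign with 1 tumour library left out, with ranges of -0.054 to 0.574 for Fbxo32, -0.413 to 1.259 for Pdk4, -1.534 to 0.458 for Angptl4, -0.251 to 1.783 for Fst, -0.768 to 1.043 for Igf1, -0.272 to 1.063 for Ppargc1a, -2.603 to 0.075 for Nmrk2, -0.299 to 0.386 for Smox, -0.029 to 0.38 for Myh4 and -0.124 to 0.033 for Myh2. Igf1 also turned with length-scaled counts (-0.068).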

Other observations

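Hypoxia-list genes, not described above, were called in both directions. Of 15, 2 were higher in KPC (13.3%, against 2.94% of all genes) and 1 lower (6.67%, against 3.05%). None was called with the 4 libraries alone. With C57BL/6 libraries only 1 was higher, with length-scaled counts 2 were, and the lower call held in neither. The list's median was 0.24, and it ran from 0.09 without KPC replicate 2 to 0.32 without KPC replicate 1. Hif1a, the oxygen-regulated transcription factor, was at 26.6 and 41.0 CPM in KPC and 19.2 and 17.8 in KPCML1 (0.87 ± 0.19, adjusted p = 0.022). Pfkfb4, which regulates glycolytic flux, was at 111 and 92.9 CPM against 55.9 and 54.7 (0.88 ± 0.22, adjusted p = 0.032). P4ha1, a collagen prolyl hydroxylase, was lower, with 20.7 and 15.5 CPM against 32.4 and 30.2 (-0.79 ± 0.21, adjusted p = 0.043). None of 59 cytosolic ribosomal protein genes and 20 heat shock and chaperone genes was called by edgeR, with medians of 0.12 and 0.21, which ran from -0.07 to 0.33 and from 0.08 to 0.37 when 1 tumour library was left out. At an unadjusted p under 0.05 stood 2 and 7 of them, against 3883 of all 16096 genes. DESeq2 called 2 higher in each list, against 1029 of all genes.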
